A study of Mus musculus with 4 samples.

Results

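The 10 genes described here are those used to recognise the microvillar cells of the mouse main olfactory epithelium. They form a set of 5 genes associated with ionocytes (Ascl3, Foxi1, Cftr, Atp6v1b1 and Coch) and a set of 5 genes associated with chemosensory, tuft-like cells (Trpm5, Pou2f3, Chat, Gnat3 and Il25). They were taken by name from the 55511 genes of the count matrices, and all 10 were detected in each of the 4 mice. The mice were untreated males of strain C57BL/6 in the labels (C57BL/6J in the study's methods), 8 weeks old, with 1 droplet-based single-cell library each, so that there is a single group at rest and no condition to compare. Cells of the dissociated epithelium were sorted as nucleated and alive before capture. The 15859 cells that the authors retained carry one of 10 deposited cell type names: mature and immature olfactory sensory neurons (mOSN, iOSN2, iOSN1), immediate neuronal precursors (INP), globose basal cells (GBC), horizontal basal cells (HBC1, HBC2), sustentacular cells (Sus) and the microvillar types Mv1 and Mv2.

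Ionocytes are rare epithelial cells that move ions and acid across an epithelium. Foxi1 and Ascl3 are transcription factors of their specification, Cftr is a chloride and bicarbonate channel, Atp6v1b1 is an isoform of subunit B of the proton-pumping V-ATPase, and Coch encodes the secreted protein cochlin. Chemosensory microvillar cells share much of their transcriptome with taste and tuft cells. Pou2f3 is the transcription factor required for this lineage, Gnat3 is the taste G protein alpha subunit gustducin, Trpm5 is the calcium-activated cation channel at the end of taste transduction, Chat makes acetylcholine, and Il25 is an epithelial cytokine that acts on immune cells.

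Levels are given as unique molecular identifiers (UMIs) per 10000 UMIs of the cells of a type, computed in each mouse, as mean ± SD of the 4 mice. The UMIs come from transcript 3′ ends, and each gene is compared with itself between cell types, not with other genes. The retained cells included 1768 Mv2 cells (400 to 490 a mouse) and 124 Mv1 cells (20 to 54 a mouse). The median depth was 5081 UMIs in Mv2, 3353 UMIs in Mv1 and 4861 UMIs in mOSN. Because a share of cells with a UMI rises with depth, shares are given after each cell was thinned to 2000 UMIs, with the unthinned share beside them. The cell types were clustered on these same genes, so that a level in one type against another is a description and has no test. Of 21755 distinct barcode sequences, 54 occurred in 2 or more libraries, and 7 Mv2 cells and 1 Mv1 cell carried such a barcode.

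The promoters of 8 of the 10 genes (250 bases before the transcription start to 50 bases after it) were available from RefSeq on build GRCm38.p6. They were searched on both strands for a forkhead motif (TGTTTAC), the octamer bound by POU factors (ATGCAAAT) and an E-box (CAGCTG, which reads the same on both strands), none of which overlap one another. Of 32851 promoters of the same length, 3.65% held the forkhead motif, 1.74% the octamer and 16.3% the E-box. Among the 8 genes only the Atp6v1b1 promoter held the forkhead motif, starting at base -98, and only the Chat promoter held the E-box, starting at base -150, and none held the octamer. A match or its absence describes these letters in this window only. The promoters of the transcription factors and of the channel that mark Mv2 are shown beside those of Atp6v1b1 and Chat, 5′ to 3′ on the strand of the gene, with motif matches in capitals. They lie at chr7:109731683-109731982 on the minus strand for Ascl3, chr11:34208040-34208339 on the minus strand for Foxi1, chr6:18170437-18170736 on the plus strand for Cftr, chr6:83742767-83743066 on the plus strand for Atp6v1b1 and chr14:32465860-32466159 on the minus strand for Chat.
Ascl3: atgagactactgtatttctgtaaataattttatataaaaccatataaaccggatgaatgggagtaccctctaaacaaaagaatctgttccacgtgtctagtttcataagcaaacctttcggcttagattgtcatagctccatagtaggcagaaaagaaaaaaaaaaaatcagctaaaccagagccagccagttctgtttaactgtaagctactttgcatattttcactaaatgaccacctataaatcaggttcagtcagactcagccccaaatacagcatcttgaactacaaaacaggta
Foxi1: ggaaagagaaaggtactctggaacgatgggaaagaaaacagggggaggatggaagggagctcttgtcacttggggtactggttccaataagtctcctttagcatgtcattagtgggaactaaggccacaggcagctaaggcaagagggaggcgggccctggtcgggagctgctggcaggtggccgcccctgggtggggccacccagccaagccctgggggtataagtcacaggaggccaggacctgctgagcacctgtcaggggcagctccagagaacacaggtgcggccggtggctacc
Cftr: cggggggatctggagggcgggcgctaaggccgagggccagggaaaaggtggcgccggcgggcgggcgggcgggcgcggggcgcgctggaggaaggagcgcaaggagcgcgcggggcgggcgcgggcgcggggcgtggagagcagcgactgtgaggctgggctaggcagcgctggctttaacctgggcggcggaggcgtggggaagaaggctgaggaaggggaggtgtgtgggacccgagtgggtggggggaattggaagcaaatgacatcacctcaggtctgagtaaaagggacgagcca
Atp6v1b1: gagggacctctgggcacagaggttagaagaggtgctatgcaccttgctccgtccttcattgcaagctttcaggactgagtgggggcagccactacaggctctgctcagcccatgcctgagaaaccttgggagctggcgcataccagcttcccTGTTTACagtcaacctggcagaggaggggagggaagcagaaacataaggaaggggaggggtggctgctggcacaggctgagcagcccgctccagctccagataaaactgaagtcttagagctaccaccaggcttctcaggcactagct
Chat: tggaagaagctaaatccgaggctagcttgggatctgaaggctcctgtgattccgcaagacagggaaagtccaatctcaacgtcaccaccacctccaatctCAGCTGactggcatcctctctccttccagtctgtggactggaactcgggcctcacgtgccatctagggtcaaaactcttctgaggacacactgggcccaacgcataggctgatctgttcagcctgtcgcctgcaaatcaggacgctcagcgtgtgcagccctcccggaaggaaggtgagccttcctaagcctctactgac

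In the GRCm38 annotation (GENCODE) Ascl3 spans chr7:109727465-109731726, Foxi1 chr11:34204338-34208089, Cftr chr6:18170687-18322768, Atp6v1b1 chr6:83742990-83758855 and Coch chr12:51593341-51605771. Of the chemosensory genes, Trpm5 spans chr7:143069153-143094642, Pou2f3 chr9:43123939-43210369, Chat chr14:32408203-32465989, Gnat3 chr5:17962549-18019834 and Il25 chr14:54932695-54935837. In all, 7 of the 10 genes overlap no other gene: Ascl3, Foxi1, Atp6v1b1, Coch, Pou2f3, Gnat3 and Il25. Cftr overlaps the predicted gene Gm15595 on its own strand, Trpm5 overlaps Tssc4 on the opposite strand, and Chat shares its locus and strand with Slc18a3, the vesicular acetylcholine transporter. How far these overlaps affect the counts of the 3 genes was not tested.

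Of the ionocyte genes, 4 had their highest level in Mv2, and there each of the 4 was above every value of every other type in every mouse. Ascl3 was at 17.5, 22.0, 20.7 and 17.8 UMIs per 10000 in the Mv2 cells of mice 1 to 4 (19.5 ± 2.20). Its next level was in GBC, at 1.04, 4.06, 1.18 and 1.70 (1.99 ± 1.41), so that the mean in Mv2 was 9.79 times that in GBC with no overlap between mice. HBC1 had no Ascl3 UMI in 210 cells, which allows up to 0.0289 UMIs per 10000. Foxi1 followed the same order, with 6.68, 8.34, 8.09 and 7.28 UMIs per 10000 in Mv2 (7.60 ± 0.760) and 1.38, 2.98, 1.72 and 1.29 in GBC (1.84 ± 0.782). For both transcription factors GBC was thus the second type by mean, and its lowest mouse was above the mOSN, where Ascl3 stood at 0.00805 ± 0.00413 and Foxi1 at 0.00276 ± 0.00157 UMIs per 10000. For Ascl3 the mice of GBC overlapped those of Mv1 (0.730 ± 1.23), which in mouse 3 was at 2.57.

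Cftr was at 6.59, 8.24, 7.66 and 7.10 UMIs per 10000 in Mv2 (7.39 ± 0.711). Its second level was not in GBC but in Sus, the glia-like supporting cells, with 0.325, 0.705, 0.384 and 0.484 (0.474 ± 0.167). The 4 mice of Sus overlapped those of GBC (0.436 ± 0.390), and these neighbours in the order do not differ beyond their spread. In Sus, 76 of 336 cells held a Cftr UMI, 56 of them a single UMI, so that the signal was spread over many cells. After thinning, Cftr was found in 8.79% ± 3.31 of Sus cells, against 0.0707% ± 0.0374 of mOSN and 74.1% ± 2.89 of Mv2 cells. The unthinned shares were 22.3% ± 2.78, 0.186% ± 0.0698 and 93.7% ± 2.70.

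Coch, of the ionocyte genes highest in Mv2, had the smallest relative spread between mice, at 172, 168, 162 and 156 UMIs per 10000 in Mv2 (165 ± 7.04). Within a mouse the level per cell ran from 91.3 to 105 at the 10th percentile to 229 to 253 at the 90th, and 1767 of 1768 Mv2 cells held a Coch UMI. Ascl3 was found in 92.1% ± 2.70 of Mv2 cells after thinning and 98.0% ± 1.13 without it. Foxi1 was found in 73.0% ± 6.78 after thinning and 91.0% ± 3.01 without it. In mOSN, a type not expected to hold either transcription factor, the unthinned shares were 0.425% ± 0.297 for Ascl3 and 0.142% ± 0.0814 for Foxi1. Of the summed markers of other cells, those of Sus were highest in Mv2, at 14.1 ± 1.63 UMIs per 10000, nearly all from Sult1c1. Others were at 1.83 ± 0.657 UMIs per 10000 for 5 mOSN markers, 0.110 ± 0.0608 for 4 HBC markers and 0.202 ± 0.0975 for 4 immune markers. Of all UMIs of a gene in retained cells, Mv2 held 96.9% for Ascl3, 93.8% for Foxi1, 95.9% for Cftr and 97.3% for Coch.

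**Figure D1:**
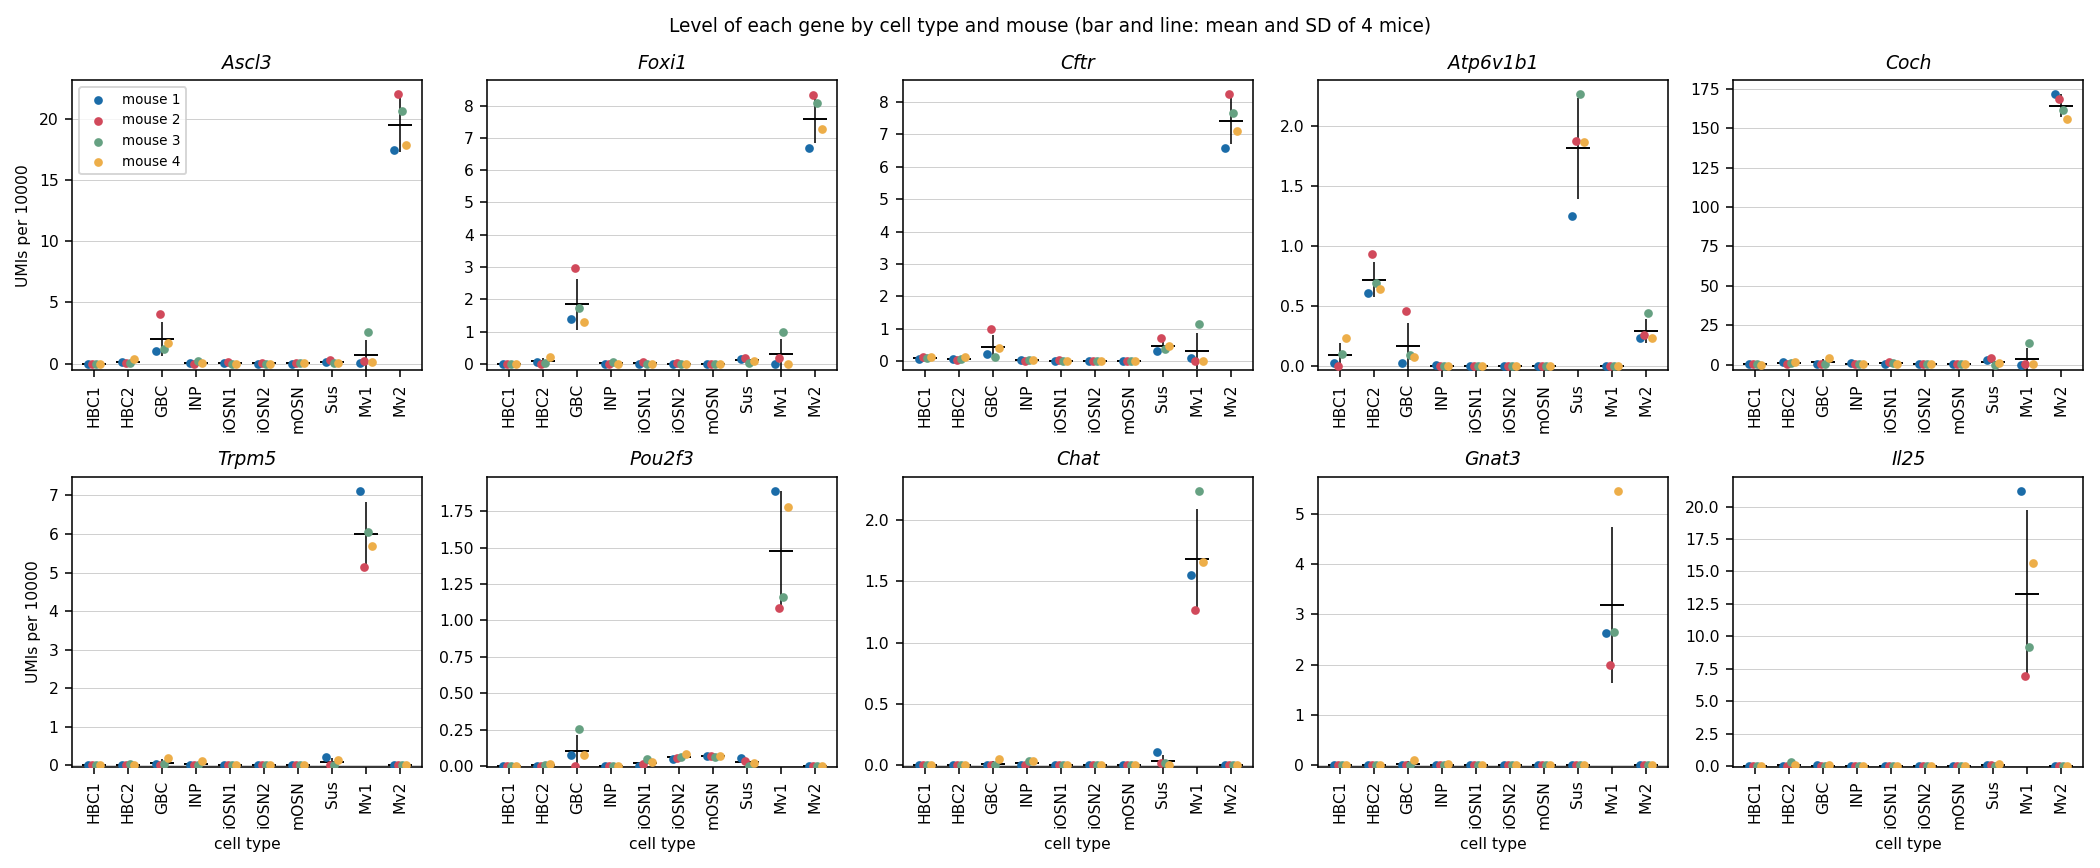
Level of each of the 10 genes (UMIs per 10000, linear axes that differ between panels) in 10 cell types, with a point for each of 4 mice and the mean and SD as bar and line. Ascl3, Foxi1, Cftr and Coch are highest in Mv2, the 5 chemosensory genes in Mv1, and Atp6v1b1 in Sus, where its mean is 1.81.

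Atp6v1b1 did not follow the other ionocyte genes. It was highest in Sus, at 1.25, 1.87, 2.27 and 1.87 UMIs per 10000 (1.81 ± 0.421), followed by HBC2 at 0.607, 0.936, 0.692 and 0.646 (0.720 ± 0.148). Mv2 followed, at 0.230, 0.262, 0.446 and 0.237 (0.294 ± 0.102), and every mouse of HBC2 was above every mouse of Mv2. Only 6.32% ± 1.63 of Mv2 cells held an Atp6v1b1 UMI after thinning (12.1% ± 4.06 unthinned), against 30.0% ± 7.31 of Sus cells (65.3% ± 7.26 unthinned). No Mv1 cell held one, which at 124 cells allows up to 0.0575 UMIs per 10000. HBC2 also carried the Sus markers Cyp2g1 and Cyp1a2, with a summed level of the 4 Sus markers of 34.2 ± 15.6 against 113 ± 12.4 in Sus and 14.1 ± 1.63 in Mv2, where Sult1c1 made up nearly all of the sum. The part of these markers in the Atp6v1b1 level was not tested.

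The V-ATPase is a pump of a membrane sector and a cytosolic sector, whose subunits exist in ubiquitous and tissue-restricted isoforms. Of its 20 subunit and accessory genes (Atp6v1b1 among them), 10 had their highest level in Mv2, 3 in Mv1 and 3 in Sus, where 13.1% of all 17409 genes with 50 or more UMIs had their highest level in Mv2 and 11.3% in Mv1. Summed over the 20 genes, Mv2 held 94.3 to 112 UMIs per 10000 in the 4 mice (104 ± 8.39), against 40.1 ± 0.989 in Sus, 41.0 ± 2.24 in Mv1 and 41.1 ± 1.56 in mOSN. The Mv2 genes were mostly of the ubiquitous kind, with Atp6v0c at 26.4 ± 3.49, Atp6v0b at 18.3 ± 1.85, Atp6ap2 at 11.2 ± 0.998, Atp6v1d at 8.88 ± 0.589, Atp6v1e1 at 7.34 ± 0.444 and Atp6v1a at 7.32 ± 0.551 UMIs per 10000. Atp6v1b2, the ubiquitous isoform of subunit B, was also highest in Mv2, at a mean of 1.11. The restricted isoforms were divided between types. Atp6v0d2 was at 3.84 ± 0.186 in Mv2 and 0.0466 in Sus, whereas Atp6v0a4 was at 2.03 in Sus and 0.0344 in Mv2, Atp6v1c2 was at 6.92 in Sus and 2.14 in Mv2, and Atp6v1g3 had its highest level in GBC, at 1.14.

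**Figure D2:**
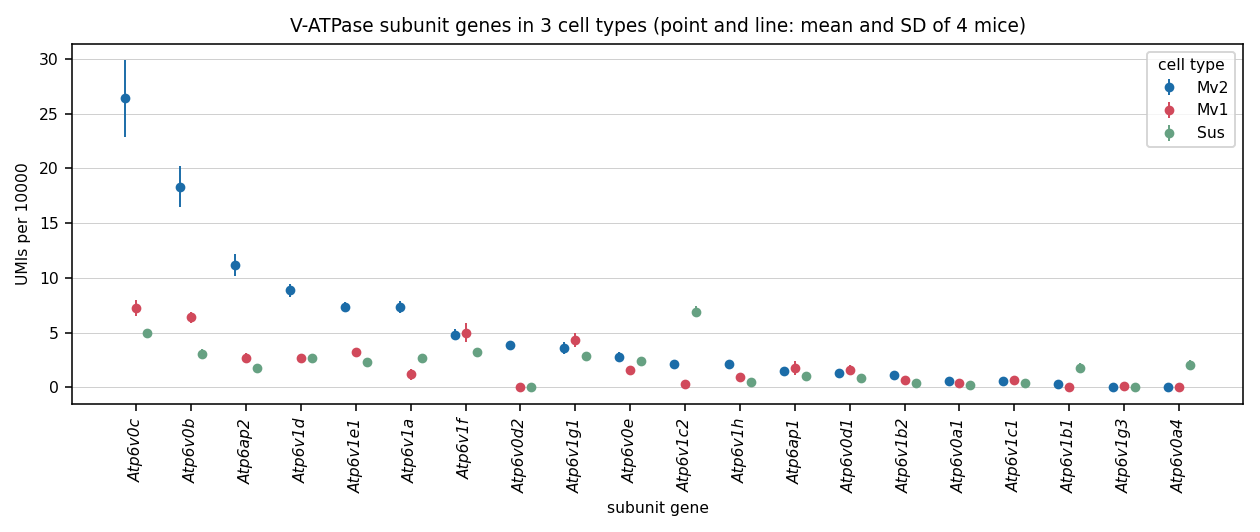
Levels (UMIs per 10000) of the 20 V-ATPase genes in Mv2, Mv1 and Sus cells, as mean and SD of 4 mice, ordered by the Mv2 mean. The summed level is 104 in Mv2 and 40.1 in Sus, but Atp6v1b1, Atp6v1c2 and Atp6v0a4 are higher in Sus.

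Most other genes of ion transport and ionocyte identity were also highest in Mv2. Of 18 ion transport genes, 14 had 50 or more UMIs and 10 of these were highest in Mv2. They included the Na-K-2Cl cotransporter Slc12a2 (16.4 ± 1.74 UMIs per 10000 in Mv2), the barttin gene Bsnd (2.24 ± 0.413), and the epithelial sodium channel subunits Scnn1a (5.75 ± 0.428), Scnn1b (5.06 ± 0.879) and Scnn1g (2.82 ± 0.220). Atp1b1, the gene of a sodium pump beta subunit, was also highest there (23.3 ± 0.740), but not by far. Its mean was 19.2 in mOSN, 18.4 in iOSN2 and 17.7 in HBC1. Slc26a4, Slc4a1 and Slc4a9, anion exchangers of renal and airway acid-base cells, had 16, 46 and 31 UMIs in all retained cells. Of 13 genes of ionocyte regulation and surface, 10 were highest in Mv2, which include Ascl3 and Foxi1 themselves and also Stap1 (41.8 ± 1.28), Moxd1 (12.9 ± 0.955), Hepacam2 (9.56 ± 0.986) and Tfcp2l1 (5.31 ± 0.609). Hepacam2 was also found in Mv1, at 6.12 ± 0.262 UMIs per 10000.

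All 5 chemosensory genes had their highest level in Mv1, where every mouse was above every mouse of every other type. Trpm5 was at 7.13, 5.16, 6.06 and 5.69 UMIs per 10000 (6.01 ± 0.832), and its next type, Sus, was at 0.0872 ± 0.107. Pou2f3 was at 1.89, 1.09, 1.16 and 1.78 (1.48 ± 0.414), and Chat at 1.55, 1.27, 2.24 and 1.66 (1.68 ± 0.409). For these 3 genes the mice lay closer together, relative to the mean, than for the other chemosensory genes.

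Gnat3 was at 2.62, 1.99, 2.66 and 5.46 UMIs per 10000 (3.18 ± 1.55), with mouse 4 highest. Il25 was at 21.2, 6.97, 9.21 and 15.7 (13.3 ± 6.46), with mouse 1 highest and mouse 2 lowest. Within a mouse Il25 was uneven between cells, with a median of 2.50 to 12.8 and a 90th percentile of 25.9 to 58.7 UMIs per 10000. Among cells with 2000 or more genes its mean was lower, at 8.00. Mouse 2, which had the lowest summed level of the 5 genes (16.5 against 21.3 to 34.4 in the other mice), also had the highest summed level of the 5 mOSN markers in its Mv1 cells (26.7 against 0.996 to 11.3, and 201 ± 6.18 in mOSN themselves), and the part of these markers in the chemosensory levels was not tested.

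After thinning, a UMI was found in 60.5% ± 17.9 of Mv1 cells for Trpm5, 55.7% ± 11.0 for Il25, 41.4% ± 9.44 for Gnat3, 24.8% ± 5.21 for Chat and 23.0% ± 14.1 for Pou2f3. The unthinned shares were 80.9% ± 13.3, 66.4% ± 6.62, 54.2% ± 11.2, 49.6% ± 13.8 and 47.7% ± 8.88 in the same order. Mv2 cells, the other microvillar type, served as a comparison. Of 1768 Mv2 cells, none held Pou2f3, Chat or Gnat3, which allows up to 0.00322 UMIs per 10000. A Trpm5 UMI was found in 1 Mv2 cell and an Il25 UMI in 4. Unthinned shares were higher in some other types. For Trpm5 they were 3.79% ± 2.70 in GBC and 1.65% ± 2.05 in Sus, and for Il25 1.77% ± 2.27 and 1.52% ± 1.31. Of the UMIs in retained cells, Mv1 held 91.7% for Gnat3, 88.9% for Il25, 83.7% for Chat and 78.9% for Trpm5, but only 15.3% for Pou2f3. Over all barcodes, removed ones included, these pooled shares were lower, at 74.8% for Gnat3, 73.1% for Il25, 60.4% for Chat and 58.5% for Trpm5.

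**Figure D3:**
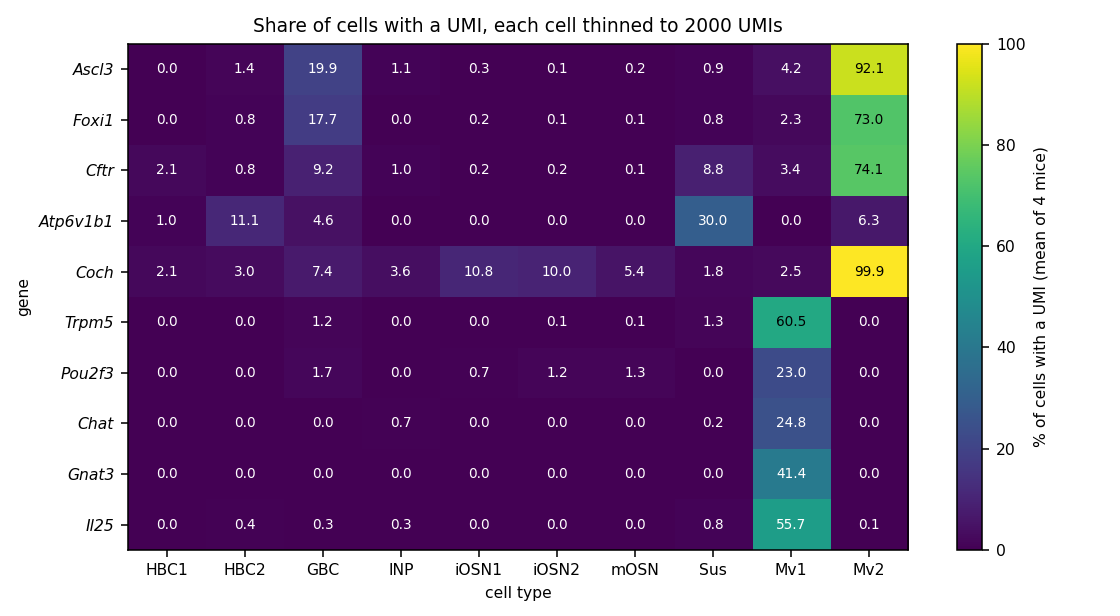
Share of cells with a UMI (%, mean of 4 mice) for each gene and cell type after thinning each cell to 2000 UMIs, on a colour scale from 0 to 100. Coch and Ascl3 are found in 99.9% and 92.1% of Mv2 cells, and Trpm5 in 60.5% of Mv1 cells.

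The wider chemosensory programme was also found in Mv1. Of 13 genes of tuft cell regulation and structure, 11 including Pou2f3 were highest in Mv1, with Lrmp at 30.3 ± 2.58, Sox9 at 10.3 ± 2.34, Ptpn18 at 10.0 ± 0.973, Sh2d6 at 9.30 ± 1.02 and the actin-binding advillin gene Avil at 7.79 ± 1.81 UMIs per 10000. Of the 4 immune markers, which tuft-like cells can share, Ptprc was at 0.491 ± 0.302 in Mv1 and Tyrobp and Ctss were at 0. Dclk1, a widely used tuft cell marker, was an exception, at 14.2 in Sus and 0.516 in Mv1. Of 7 genes of eicosanoid synthesis, 6 were highest in Mv1, including the leukotriene genes Alox5ap (16.4 ± 1.95), Ltc4s (10.8 ± 2.20) and Alox5 (5.42 ± 1.28), the cyclooxygenase gene Ptgs1 (9.94 ± 1.22) and the phospholipase gene Pla2g4a (3.45 ± 0.373). Ptges, a prostaglandin E synthase gene, was at 0 in Mv1 and 1.80 in Mv2.

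Taste transduction was represented in part. Of 14 genes, 6 had 50 or more UMIs and 3 of these were highest in Mv1: Trpm5, Gnat3 and Rgs13 (14.4 ± 3.72). Gng13, the taste and olfactory G protein gamma subunit, was at 24.6 ± 4.13 in Mv1 but highest in mOSN. The phospholipase gene Plcb2 was at 0.535 ± 0.210 in Mv1 with 41 UMIs in all cells, and the sweet and umami receptor genes Tas1r1, Tas1r2 and Tas1r3 had 5, 1 and 28 UMIs in all cells. Itpr3, the inositol trisphosphate receptor of taste cells, was highest in Mv2, at 2.36. Beside Chat, the acetylcholine transporter gene Slc18a3 had 1 UMI and the choline transporter gene Slc5a7 none in the 15859 cells. Among the cytokine genes, Il33 was highest in HBC2 and stood at 0.0121 in Mv1, whereas the receptor genes Il13ra1 and Il4ra were highest in Mv1, at 2.99 and 0.741.

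Co-detection asked whether the genes of a set mark the same cells of a type. The number of cells with both genes was divided by the number given by the product of the 2 shares within each mouse, at 2000 UMIs a cell. In Mv2 the ratio was 1.000 for Ascl3 with Foxi1 (1143 cells of 1718), 0.997 for Ascl3 with Cftr (1161 cells) and 1.02 for Foxi1 with Cftr (937 cells), and no mouse departed from 1 by more than 0.024 for any of these pairs. Because Ascl3 was found in nearly all Mv2 cells, its ratios could hardly depart from 1, and the pair of Foxi1 with Cftr is the more informative. Unthinned, 1484 of 1768 Mv2 cells held all of Ascl3, Foxi1, Cftr and Coch, 256 held 3 of them and 28 held 2.

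In Mv1 the ratios lay between 0.873 (Pou2f3 with Gnat3, 11 cells of 117) and 1.16 (Chat with Il25, 21 cells). The ratio for Trpm5 with Il25 was 0.977 (45 cells), and for Trpm5 with Pou2f3 it was 1.13 (27 cells). These rest on few cells a mouse, and for Pou2f3 with Il25 the mice ranged from 0 to 1.20 and the ratio was 0.711 without mouse 1. Trpm5 with Pou2f3 was at 1.56 without mouse 1. With 2 or more UMIs required, Trpm5 with Chat was at 0.633 and Pou2f3 with Chat at 0. Unthinned, 14 of 124 Mv1 cells held all 5 chemosensory genes, 29 held 4, 39 held 3, 27 held 2, 14 held 1 and 1 held none. The lowest ratio stood for 11 cells found where the shares gave 12.6.

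**Figure D4:**
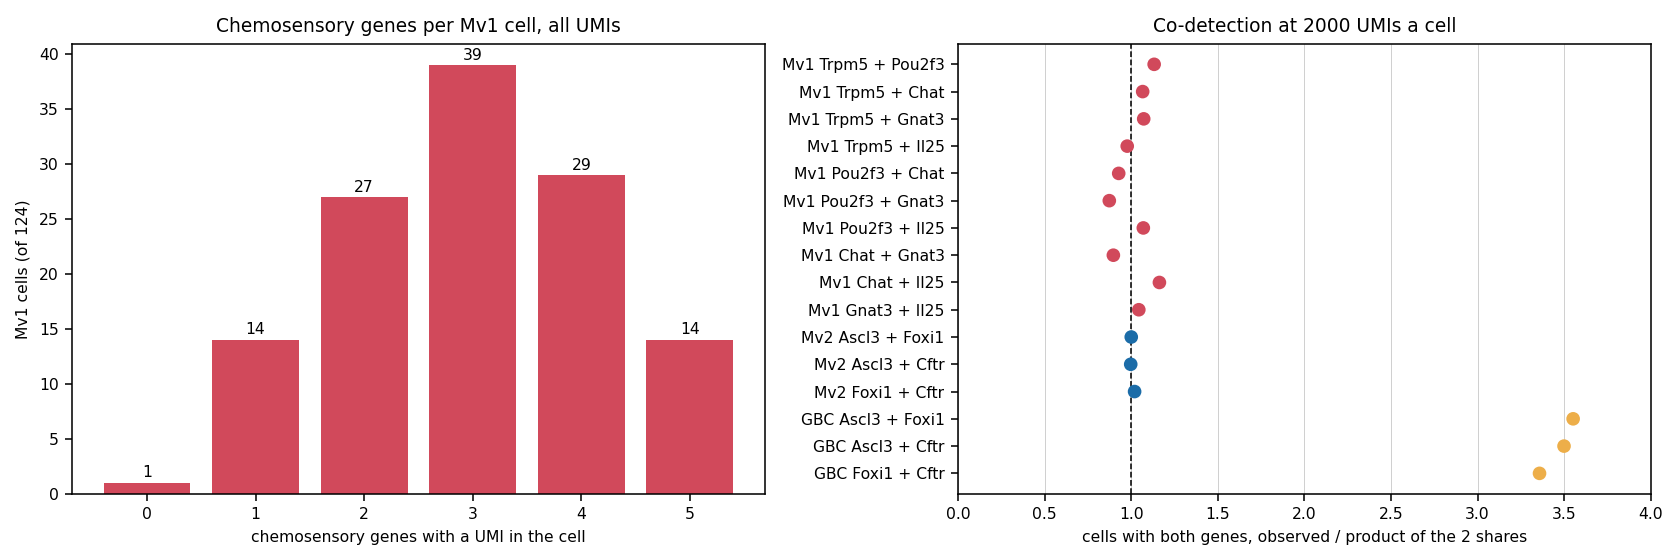
Left, number of Mv1 cells (of 124) by how many of the 5 chemosensory genes have a UMI. Right, cells with both genes of a pair divided by the product of the 2 shares (dashed line at 1) for the pairs of the 5 chemosensory genes in Mv1 and the pairs of Ascl3, Foxi1 and Cftr in Mv2 and GBC. The plotted Mv1 and Mv2 pairs lie between 0.873 and 1.16 and the plotted GBC pairs between 3.36 and 3.55, and pairs with Coch or Atp6v1b1 are not plotted.

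Few microvillar cells held genes of both sets. Of 1768 Mv2 cells, 4 held a UMI of a chemosensory gene, and 1 held 2 or more of these genes beside 2 or more of Ascl3, Foxi1 and Cftr. Of 124 Mv1 cells, 10 held a UMI of Ascl3, Foxi1 or Cftr, and 2 held 2 or more genes of each set. Both of these cells were from mouse 3 and had 7339 and 13540 UMIs, against a median of 3353 in Mv1. They held 167 of the 171 Coch UMIs and 31 of the 35 Ascl3 UMIs of Mv1, which placed mouse 3 apart: Coch was at 13.9 in mouse 3 and 0 to 0.271 in the other 3 mice. Without these 2 cells Coch in Mv1 was at 0.0975 ± 0.129 UMIs per 10000 and Ascl3 at 0.0870 ± 0.0793, and the levels of the chemosensory genes moved by less than their SD.

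Mv2 cells with and without a Foxi1 UMI after thinning were compared with edgeR's quasi-likelihood test on summed counts of the thinned cells, with the mouse as a block. The 1243 cells with and 475 cells without Foxi1 differed in 1 of 6564 genes (0.0152%), with 331 genes at an unadjusted p under 0.05. No gene was called higher in cells with Foxi1 (0%), although 3 were with no filter on low counts and 3 with all UMIs. With all UMIs 1605 of the 1768 Mv2 cells held Foxi1, and 38, 32, 27 and 66 cells in mice 1 to 4 did not, so that most of the 475 cells did hold Foxi1 and lost its UMIs to thinning. The lack of calls therefore does not show that cells lacking Foxi1 are like the others. Ascl3 stood at 19.2 ± 2.25 UMIs per 10000 in cells with Foxi1 and 19.1 ± 2.90 in cells without, a log2 difference of -0.01 ± 0.05 (SE, edgeR adjusted p = 0.994). Cftr differed by -0.01 ± 0.07, Coch by 0.03 ± 0.03 and Atp6v1b1 by -0.06 ± 0.32, none of them called. None of the 18 V-ATPase, 10 ion transport and 11 ionocyte regulator genes that could be tested (Atp6v1b1 and Ascl3 included) was called in either direction, and their median log2 differences were -0.01, 0.02 and -0.01, beside 0.00 for all genes tested.

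The 1 gene called was S100a5, a calcium-binding protein gene of olfactory neurons, at 1.61 ± 0.370 UMIs per 10000 in cells with Foxi1 and 2.70 ± 1.26 in cells without (log2 difference -0.79 ± 0.12, SE, edgeR adjusted p = 1.31e-06, lower in 4 of 4 mice). Without the 34 Mv2 cells that held 3 or more odorant receptor UMIs, the S100a5 difference was -0.05 (edgeR adjusted p = 0.988) and no gene was called. S100a5 was also not called without the mouse block, with DESeq2, without mouse 1 (log2 difference -0.50, edgeR adjusted p = 0.627) or without mouse 3 (edgeR adjusted p = 0.146), and with all UMIs in place of thinned cells it was higher in cells with Foxi1, by 1.02 on the log2 scale. In the test with all cells the 3 mOSN markers tested had a median log2 difference of -0.82 and none was called, and their part in the S100a5 difference was not tested.

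GBC, the basal progenitors of the epithelium, held the second level of Ascl3 and Foxi1, and there Ascl3, Foxi1 and Cftr were found together more often than their shares gave. At 2000 UMIs a cell, Ascl3 and Foxi1 were found together in 23 of 196 GBC, 3.55 times the product of their shares (2.45 to 8.00 in the 4 mice). The ratio was 3.50 for Ascl3 with Cftr (13 cells) and 3.36 for Foxi1 with Cftr (10 cells). Pairs with Coch or Atp6v1b1 rested on 6 cells or fewer, with ratios of 0.819 for Foxi1 with Coch (2 cells), 0.784 for Foxi1 with Atp6v1b1 (1 cell) and 1.45 for Cftr with Coch (2 cells), against 2.12 for Ascl3 with Coch (6 cells) and 1.77 for Ascl3 with Atp6v1b1 (3 cells). A Foxi1 UMI was found in 48 of 202 GBC unthinned: 17, 13, 4 and 14 cells in mice 1 to 4. The median depth of these cells was 8288 UMIs, against 10293 UMIs in the 154 GBC without Foxi1.

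The GBC with Foxi1 were compared with the others after their values were seen, as a description with no test. Ascl3 was at 4.94 to 12.4 UMIs per 10000 in the 4 mice in GBC with Foxi1 (7.39 ± 3.50) and at 0, 0, 0 and 0.237 in GBC without. Stap1, the gene outside the 10 members most like Ascl3 over all types, was at 7.59, 18.1, 7.47 and 8.72 against 0, 0.0616, 0.125 and 0.809. The regulator Tfcp2l1 was at 1.48 ± 0.937 against 0.0726 ± 0.0999, and Hepacam2 at 3.43 ± 1.39 against 0.0888 ± 0.178. In each of the 4 mice these 4 genes were higher in the GBC with Foxi1. Coch was not, at 0.0909, 1.77, 0.267 and 10.3 UMIs per 10000 in GBC with Foxi1 and 0.226, 0, 0.585 and 2.94 in those without. Atp6v1b1 was higher in each of the 4 mice, at 0.136, 1.26, 0.133 and 0.149 against 0, 0.0616, 0.0836 and 0.0592, with a UMI in 11 of 48 cells against 4 of 154. Atp6v1g3, the V-ATPase isoform highest in GBC, was lower with Foxi1 in 3 of the 4 mice, at 0.492 ± 0.239 against 1.31 ± 1.27. The order was opposite for genes of the neuronal lineage: Neurod1 was at 1.30 ± 1.60 against 7.02 ± 1.92, and Tubb3 at 0.946 ± 1.19 against 8.16 ± 3.39, without overlap between mice. The proliferation gene Mki67 was at 1.46 ± 1.25 against 4.04 ± 0.785, with 1 mouse of the first set (3.34, from 4 cells) level with the lowest of the second (3.33). The receptor gene Kit, which over all cells was at like levels in Mv2 (1.13), GBC (1.06) and Mv1 (0.994), was at 2.24 ± 0.445 against 0.656 ± 0.444.

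GBC with Foxi1 also held genes of Mv1. Rgs13 was at 3.30 ± 1.94 UMIs per 10000 in GBC with Foxi1 and 0.138 ± 0.276 in those without, and Sox9 at 3.35 ± 1.43 against 1.34 ± 1.21. Sox9 was not found in Mv1 alone, with means of 5.83 in Sus and 2.80 in HBC1. Trpm5 was found in 8 of the 48 cells and 1 of the 154, and Il25 in 2 of the 48 and 3 of the 154. Markers of other types were higher as well, with the Sus marker Cyp2g1 at 0.0909, 0.253, 2.27 and 1.49 UMIs per 10000 against 0.0833, 0, 0 and 0.631, and the HBC marker Krt5 at 0.205 ± 0.410 (1 cell) against 0.00892 ± 0.0178 (1 cell). No doublet caller was run, and the part of mixed cells in these levels was not tested. In all, 12 of the 53 GBC with Ascl3, Foxi1 or Cftr held a chemosensory gene, and 3 held 2 or more genes of each set. Without the 15 GBC that held a chemosensory gene, the mean of Ascl3 in GBC was 1.87 and that of Foxi1 1.46, so that GBC stayed second by mean for both. In mouse 3, however, Foxi1 was then at 0.558 in GBC, below the 0.996 of Mv1.

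**Figure D5:**
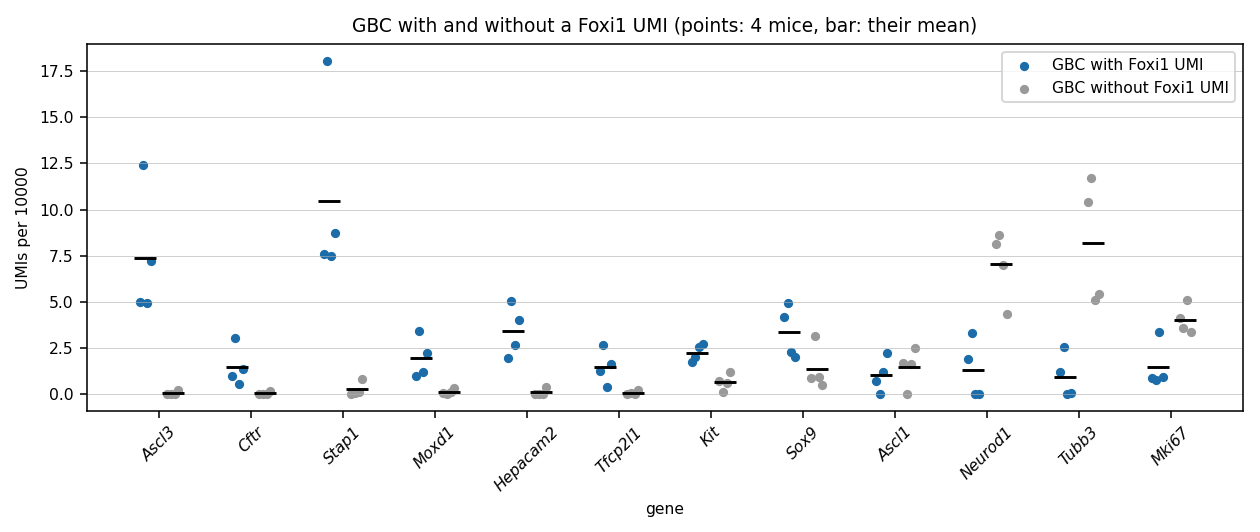
Levels (UMIs per 10000) of 12 genes in GBC with a Foxi1 UMI (48 cells) and without one (154 cells), with a point for each of 4 mice and a bar for their mean. Ascl3, Stap1, Moxd1, Hepacam2 and Tfcp2l1 lie higher with Foxi1, and Neurod1 and Tubb3 lower.

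Outside the microvillar cells, Coch and Pou2f3 were found at low levels in sensory neurons, though not there alone. Coch was at 0.324, 0.292, 0.304 and 0.276 UMIs per 10000 in mOSN (0.299 ± 0.0204) and 0.601, 0.583, 0.435 and 0.551 in iOSN2 (0.543 ± 0.0744), each mouse of either above HBC1 (0.0987 ± 0.0398). The mean in mOSN was nonetheless the lowest of all types but HBC1, with GBC at 1.44 ± 2.03 and Sus at 1.90 ± 1.81. The GBC mean rested on mouse 4, at 4.48 against 0.198 to 0.580 in the other mice. Within a mouse, mOSN were above GBC in mouse 1, INP (0.0545) and HBC2 (0.220) in mouse 2 and Sus (0.0183) in mouse 3. They were also above Mv1 in mice 1, 2 and 4. After thinning, a Coch UMI was found in 5.39% ± 0.373 of mOSN, 9.95% ± 1.67 of iOSN2 and 10.8% ± 4.32 of iOSN1, against 7.36% ± 3.00 of GBC, 3.65% ± 2.60 of INP, 3.03% ± 0.969 of HBC2, 2.07% ± 1.53 of HBC1 and 1.78% ± 1.92 of Sus. The unthinned shares were 13.2% ± 2.83, 27.5% ± 3.48 and 30.8% ± 8.72 in the neurons and 12.6% ± 4.30, 5.19% ± 2.18, 6.71% ± 1.33, 4.95% ± 2.17 and 3.91% ± 2.32 in the other types. In mOSN the Coch UMIs were spread thinly, with 1160 of the 1366 positive cells holding a single UMI. In iOSN1, 176 of 258 positive cells held a single UMI, but the 5 highest cells had 159 of 538 UMIs, 103 of them in 1 cell. In HBC2, Sus, GBC and INP they were held by few cells. The 5 highest cells had 507 of 556, 403 of 440, 284 of 338 and 130 of 141 UMIs in the same order. The part of free RNA in these levels was not tested.

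Pou2f3 had 356 of its 524 UMIs in mOSN and 46 in iOSN2. The mOSN level was 0.0672, 0.0693, 0.0597 and 0.0648 UMIs per 10000 (0.0653 ± 0.00414), lower than in Mv1 in every mouse. GBC held the second mean level, 0.102 ± 0.108, with a Pou2f3 UMI in 1.75% ± 1.75 of cells after thinning (4.73% ± 3.49 unthinned). After thinning, 1.30% ± 0.213 of mOSN and 1.18% ± 0.675 of iOSN2 held a Pou2f3 UMI, where 0 of 1718 Mv2 cells did, which allows a share of up to 0.175%, and 0 of 531 HBC2, which allows up to 0.565%. The unthinned share was 3.37% ± 0.594 in mOSN, and 338 of these 347 cells held a single UMI. Of the other chemosensory genes, mOSN held 24 of 412 UMIs for Trpm5, 4 of 853 for Il25, 2 of 104 for Chat and 2 of 168 for Gnat3.

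Pearson's r was used to find the genes outside the 10 members whose pattern was most like that of each member. It was taken over the 40 sums of 10 types by 4 mice, on log2(UMIs per 10000 + 0.1). The sums of a mouse share a library, and r describes the pattern over types only. Stap1 was first for Ascl3 (r = 0.973) and for Foxi1 (r = 0.962), followed by Moxd1 and Ckap2 for Ascl3 and by Ckap2 and Rcan2 for Foxi1. Esrrg was first for Cftr (r = 0.966), at 1.37 ± 0.151 UMIs per 10000 in Mv2, and Cldn25-ps for Coch (r = 0.938). Avil was first for Trpm5 (r = 0.994), Chdh for Pou2f3 (r = 0.961), Hmx3 for Chat (r = 0.993), Matk for Gnat3 (r = 0.990) and 1810046K07Rik for Il25 (r = 0.978). For Atp6v1b1 the first was Elf5 (r = 0.940), at 5.20 ± 0.506 in Sus and 0.172 ± 0.0287 in Mv2, and Atp6v0a4 was also among its 3 nearest genes (r = 0.915). Between members, which were left out of this ranking, r was 0.983 for Ascl3 with Foxi1, higher than for Stap1 with either. It was 0.236 for Ascl3 with Atp6v1b1 and 0.0365 for Ascl3 with Trpm5.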

How the data were processed

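Single-cell libraries of the main olfactory epithelium of 4 mice were analysed from the deposited UMI counts, which the authors made with Cell Ranger 6.0.1 (STAR) on GRCm38 with an Ensembl annotation whose odorant receptor ends they had redrawn. The raw count matrices held 21809 barcodes (23157467 to 32382702 UMIs a mouse). Of these, the authors retained 15859 and named their types with Seurat, after removing clusters of blood, immune and high-mitochondrial cells. They also removed single cells by their number of genes and mitochondrial share. No retained cell had fewer than 1000 genes or over 10% mitochondrial UMIs. No doublet caller was run here. Cells with 3 or more odorant receptor UMIs were left out as an alternative. Counts of a gene were summed over the cells of a type in a mouse and divided by their total UMIs. Shares, co-detection and the Foxi1 test used cells thinned at random to 2000 UMIs (50 of 1768 Mv2 and 7 of 124 Mv1 cells were shallower). The test was edgeR 4.0.16 (TMM, filterByExpr, quasi-likelihood F-test, mouse as block, Benjamini-Hochberg at 0.05 over all genes but Foxi1). It was tested on simulated counts drawn with a common dispersion and no difference between mice, so that this check does not cover effects of single mice or of a few cells. DESeq2 1.42.0, TMMwsp normalization, no filter, no block, unthinned counts and leaving out each mouse were alternatives. From each list the genes with the highest mean level in Mv1 or Mv2 were named (up to 6), with exceptions chosen after their values were seen. In the Foxi1 test non-members past the threshold with 1 sign in all mice were named. The members, lists and tests were chosen with earlier results of these data known. Values after ± are SDs of the 4 mice or, for log2 differences, standard errors of the edgeR fit. Limits cover counting error only, and a limit for 0 is 3 counts. All columns were matched to samples. Protein sequences were not used here, and some genes of the lists are not reported here.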

Additional observations from a re-analysis of the deposited data

Results flagged for a closer look

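The level of a gene in 1 mouse stood apart from the other 3 (Dixon's test at the 95% level) in 6 of 39 groups of 4 mice with 20 or more UMIs. The chance rate of about 1 in 20 holds for independent, normally distributed values. Some of these levels were carried by few cells, and the groups are not independent, so the count is not set against that rate. In Mv1, mouse 3 was highest for Coch (13.9 UMIs per 10000) and for Ascl3 (2.57), both carried by the 2 Mv1 cells that held 2 or more genes of each set. In GBC, mouse 4 was highest for Coch (4.48) and mouse 2 for Atp6v1b1 (0.456, from 22 UMIs in all). In Mv2, mouse 3 was highest for Atp6v1b1 (0.446), and in iOSN1 mouse 2 was highest for Ascl3 (0.126, from 22 UMIs in all).

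Both gene sets were also found in barcodes that the authors had removed. Of 2391 removed barcodes of the immune clusters, 20 held 4 or more UMIs of the chemosensory genes (6, 5, 7 and 2 in mice 1 to 4). Among retained cells this count was reached by 103 of 124 Mv1 cells (83.1%). It was also reached by 5 of 202 GBC (2.48%), 6 of 336 Sus (1.79%), 2 of 284 INP (0.704%) and 3 of 544 HBC2 (0.551%). These 20 barcodes had a median of 5946.5 UMIs, and Trpm5 was found in 19 of them and Il25 in 16, at 5.88 and 9.14 UMIs per 10000 (6.23 and 14.5 over the UMIs of all Mv1 cells). They also held immune genes, with Tyrobp in 17 and Cd52 in 18 of 20, at 9.69 and 11.4 UMIs per 10000 against 17.4 and 18.8 in the other immune barcodes and 0 and 0.0383 in Mv1. The tuft genes Avil and Lrmp were found in all 20. Of 2003 removed barcodes with a high mitochondrial share, 453 held 2 or more of Ascl3, Foxi1 and Cftr, with a median of 1932 UMIs, and they were not used in the levels above. Also removed were 58 barcodes first clustered as Mv1 and 54 first clustered as Mv2. Of these Mv1 barcodes 8 held 4 or more chemosensory UMIs, with a median of 1030.5 UMIs. Of these Mv2 barcodes 46 held 2 or more of Ascl3, Foxi1 and Cftr, with a median of 1535 UMIs.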

How the results depend on the processing

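The summed levels of the ionocyte genes in Mv2 and of the chemosensory genes in Mv1 moved by less than the SD between mice under all 14 alternatives. So did 74 of 75 alternatives for the levels of single genes, the exception being Chat in Mv1 at 1.21 UMIs per 10000 among cells with 2000 or more genes. Il25 in Mv1 fell to 8.00 among these cells, within its SD of 6.46. An SD this wide can hide a large change. Without the 2 Mv1 cells that held 2 or more genes of each set, Coch in Mv1 fell from 3.56 ± 6.86 to 0.0975. Ascl3 there fell from 0.730 ± 1.23 to 0.0870. Both falls were within the SD, which these cells themselves had widened, so the count of alternatives could not flag them. Shares of cells with a UMI moved in 22 of 70 alternatives, all of depth or of the number of UMIs required. Counting all barcodes lowered the share of UMIs, here as the mean of the mice, in Mv2 to 82.8% (Cftr) to 86.7% (Coch). That in Mv1 fell to 56.7% (Trpm5) to 72.8% (Gnat3), with Pou2f3 at 13.2%. Co-detection ratios moved in 12 of 128 alternatives, and Trpm5 with Pou2f3 in Mv1 was 1.56 without mouse 1. The number of genes called in the Foxi1 test was 0 without the replicate block (177 genes at an unadjusted p under 0.05), 0 with DESeq2 (35 genes), 0 without cells with 3 or more receptor UMIs (323 genes), 6 with no filter (3 higher, 3 lower) and 5 with all UMIs (3 higher, 2 lower), and 0 to 2 when each mouse was left out, with 1 without mouse 1 (not S100a5) or mouse 2, 0 without mouse 3 and 2 without mouse 4. S100a5 reversed to a log2 difference of 1.02 with all UMIs (edgeR adjusted p = 0.000172), and the cause was not tested. Its adjusted p ranged from 1.22e-08 to 1.000 over the alternatives. The Coch and Trpm5 tests in Mv2 and the Ascl3 and Chat tests in Mv1 were not run, because each needed 5 cells on either side in every mouse: 2 of 1718 thinned Mv2 cells lacked Coch, none held Trpm5, 4 of 117 Mv1 cells held Ascl3, and Chat was found in 4 Mv1 cells of mouse 2. With all UMIs Chat had enough cells, but that test was not run. The alternatives without the cells that held both gene sets were chosen after seeing the data.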
